A study of Mus musculus with 5 samples.

Results

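Cluster 16 of the deposited clustering, a group of conventional dendritic-like cells from the thyroids of NOD mice, held 92 of the 10275 cells in the deposited table. Its members are the cells that the authors' integrated clustering put in cluster 16, and no expression threshold was added here. Summed over libraries, the 92 cells were led by Naaa, Plbd1, Wdfy4, Cd207 and Xcr1, and genes of type 1 conventional dendritic cells (cDC1) are among these. Each of these 5 genes had UMIs in every library except Cd207, which had 0 in ICI 2. They made up 0.344% to 0.857% of cells in the 4 libraries from mice given checkpoint antibodies and 2.07% in the isotype library.

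Conventional dendritic cells take up material in tissues, load its peptides on class I and class II molecules and carry them to lymph nodes, where they activate T cells. The cDC1 branch depends on the transcription factors IRF8 and BATF3, binds dead cells through the receptor CLEC9A, and is known for passing material taken up from other cells to class I molecules (cross-presentation). XCR1 is the receptor for the chemokine XCL1, which activated T cells and natural killer cells release. PD-L1 and CD80/CD86, ligands of the receptors that the antibodies block, are found on dendritic cells.

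The treated libraries, ICI 1 to ICI 4, came from male and female NOD.WT mice, 4 to 6 weeks old at the start, that received anti-PD-1 (clone RPM1-14) with anti-CTLA-4 (clone 9D9) at 10 mg/kg per dose, by intraperitoneal injection 2 times a week for 4 weeks (immune checkpoint inhibition, ICI). The isotype library came from NOD.WT mice given control antibodies (clones 2A3 and MPC11) on the same schedule; their dose was not given. NOD mice carry an inherited tendency to autoimmunity, which both groups share. Thyroids were perfused and digested with collagenase, and live CD45+ cells were sorted, so every share below is a share of sorted immune cells. The 16 ICI and 10 isotype mice were pooled, so p-values measure only the spread between libraries, which may be technical.

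Cluster 16 had 12, 5, 4 and 43 cells in ICI 1 to 4 and 28 cells in isotype, and the UMIs (counted RNA molecules) behind them numbered 130274, 29107, 37805 and 868030 in the ICI libraries, against 381067 in isotype. The median cell had 11111.5, 6543, 9265 and 21423 UMIs in ICI 1 to 4, against 12886 in isotype. The ICI 2 and ICI 3 libraries shared 140 cell barcodes over all clusters and 3 within cluster 16, so their 9 cluster 16 cells carry 6 distinct barcodes. In each of the 3 shared pairs one copy was far deeper than the other, with 1169 and 15549, 1393 and 17974, and 12107 and 1301 UMIs in ICI 2 and ICI 3. ICI 4 held 2 sets of barcodes, with 18 and 25 cluster 16 cells. Before integration the cells lay in 1 cluster shared by ICI 1 to 3, another for ICI 4 and one more for isotype. Libraries also differed in sex-linked transcripts, genes chosen after their values were seen: Xist, transcribed in female cells, had 22, 0, 4 and 0 UMIs in cluster 16 of ICI 1 to 4 and 0 in isotype, and the Y-linked Eif2s3y had 1, 0, 1 and 60 in the ICI libraries and 24 in isotype. The part of these differences in the results below was not tested, and results are given also for ICI 4 against isotype, without the ICI 1 to 3 libraries.

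The label was checked first. Levels here are counts per 1000000 UMIs (CPM) of summed cells, not corrected for gene length, and the clusters were made from these genes, so the marker levels are a description with no test. Xcr1 stood at 258 CPM in cluster 16, against 0.742 CPM in macrophage-like cluster 7 and 1.57 CPM in all cells outside cluster 16. Clec9a, the dead-cell receptor, stood at 171 CPM in cluster 16, against 12.1 CPM in cluster 7 and 1.08 CPM in all other cells. At least 1 UMI of Xcr1 or Clec9a was found in 83 of the 92 cells (90.2%, exact Clopper-Pearson 95% interval 82.2% to 95.4%, counting error only). The same share was 0.596% of 1343 T-like cells of cluster 1, which should lack both genes, at a median of 2973 UMIs against 14931 in cluster 16. Of the 92 cells, 57 held both transcripts, 11 only Xcr1, 15 only Clec9a and 9 neither.

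The sequences just upstream of these 2 defining genes are shown because their levels differed in behaviour between libraries, as described below. They are the 250 bases before the RefSeq gene start (build GRCm38.p6), 5′ to 3′ on the gene's strand, with Xcr1 at chr9:123862030-123862279 (minus strand) and Clec9a at chr6:129408612-129408861 (plus strand).
Xcr1: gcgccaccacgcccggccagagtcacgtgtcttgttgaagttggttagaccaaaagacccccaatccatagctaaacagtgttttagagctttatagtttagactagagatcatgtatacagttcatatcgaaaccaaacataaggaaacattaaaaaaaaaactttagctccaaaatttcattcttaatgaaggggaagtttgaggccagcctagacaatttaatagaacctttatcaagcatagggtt
Clec9a: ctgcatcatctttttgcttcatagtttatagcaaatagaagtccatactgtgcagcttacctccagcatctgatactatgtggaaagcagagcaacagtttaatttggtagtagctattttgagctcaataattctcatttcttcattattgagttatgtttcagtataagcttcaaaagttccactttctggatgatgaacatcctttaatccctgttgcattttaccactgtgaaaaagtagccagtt
Neither window holds GAAANNGAAA or TTCNNNGAA, letter patterns bound by interferon-activated factors that were searched on both strands, so no letter is in capitals.

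Of 15 cDC1 genes, 14 stood at 1.5-fold or more over all other cells (with 10 CPM added to both levels), and 7 were among the 20 genes with the largest fold. The share of all genes that reach this fold was not counted. The counts of list members here and in the next paragraph therefore have no background beside them. Naaa, an amidase of lipid signals, led at 39.3-fold. Wdfy4, needed for cross-presentation, stood at 34.1-fold and Irf8 at 16.1-fold. All 12 pan-dendritic genes passed the same fold, among them Flt3, the growth factor receptor of dendritic precursors, at 10.9-fold and Zbtb46, a factor of the conventional lineage, at 5.80-fold. Of 12 class II genes 12 passed it, with H2-Ab1 at 17.4-fold and Cd74, the invariant chain, at 9.21-fold. Cluster 7 held class II at similar levels, with Cd74 at 29481 CPM in cluster 16 and 34997 CPM in cluster 7.

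Genes of the other dendritic and myeloid types were mixed. Of 14 measured genes of type 2 conventional dendritic cells (cDC2), 3 reached 1.5-fold: Tnip3 at 4.21-fold, Klf4 at 2.68-fold and Notch2 at 2.42-fold. The defining Cd209a, Sirpa and Clec10a stood at 1.38, 2.07 and 1.38 CPM in cluster 16. Of 10 plasmacytoid dendritic genes 2 reached the fold, and their list summed to 875 CPM in cluster 16, 1226 CPM in cluster 7 and 649 CPM in all other cells. Of 14 measured genes of migratory (mature) dendritic cells 5 reached 1.5-fold over all other cells: Ccl22 at 9.30-fold, Cd83 at 6.30-fold (819 CPM), Cd40 at 4.75-fold, Marcksl1 at 3.27-fold and Ccl17 at 2.85-fold. Cluster 7 held Cd83, Marcksl1 and Ccl17 at 1060, 623 and 30.4 CPM, above the 819, 518 and 25.6 CPM of cluster 16. Cd40 stood at 78.2 CPM in cluster 7 and 80.2 CPM in cluster 16, and Ccl22 at 76.5 and 142 CPM. Others of that list stood below the level of all other cells, with Fscn1, an actin bundler, at 1.38 CPM in cluster 16 and 17.9 CPM in all other cells, and Ccr7 at 149 CPM in cluster 16 and 626 CPM in all other cells. Of 10 measured monocyte or neutrophil genes 3 reached the fold, among them Ccr2, a chemokine receptor of monocytes, at 2.38-fold, and S100a8 and S100a9 had no UMI. Of 14 macrophage genes 2 reached it. Complement gene C1qa, of tissue macrophages, stood at 2.77 CPM in cluster 16 against 3454 CPM in cluster 7, and Mertk, Mrc1 and Trem2 had no UMI in cluster 16. The macrophage genes with the most UMIs in cluster 16 were Lyz2 at 718 CPM and Cd68 at 185 CPM.

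**Figure D1:**
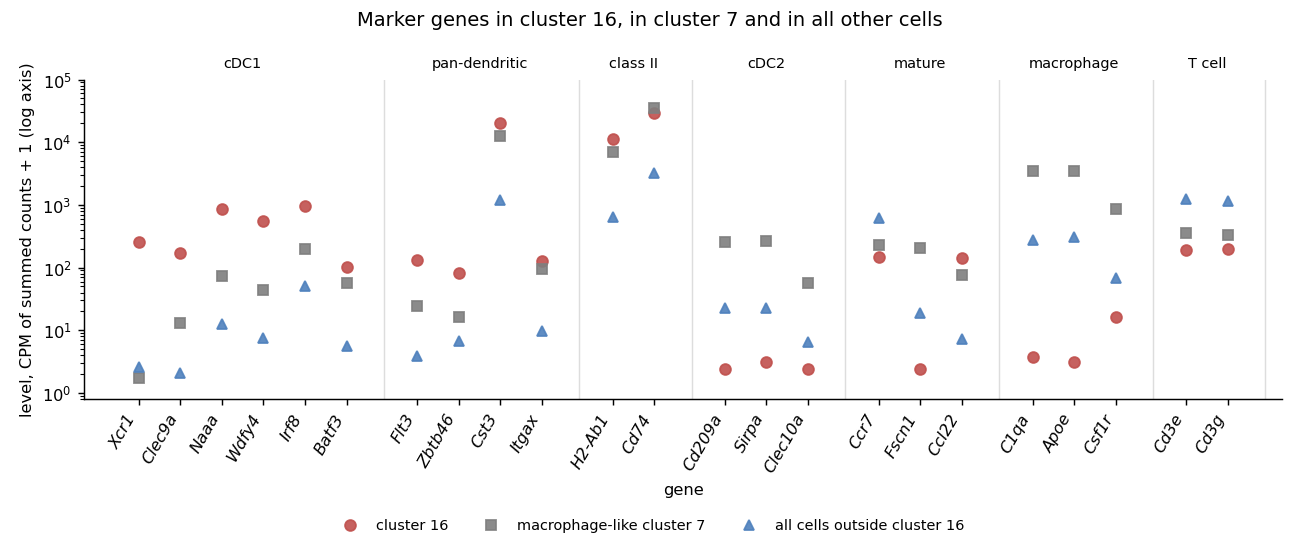
Level of marker genes (CPM of summed counts plus 1, log axis) in cluster 16 (circles), macrophage-like cluster 7 (squares) and all cells outside cluster 16 (triangles), grouped by marker list. Xcr1 lies at 258 CPM in cluster 16 and at 0.742 CPM in cluster 7, while C1qa lies at 2.77 CPM in cluster 16 and at 3454 CPM in cluster 7.

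T cell transcripts were found in a part of the cluster. A UMI of Cd3d, Cd3e or Cd3g was seen in 3 of 12, 0 of 5, 1 of 4 and 21 of 43 cells in ICI 1 to 4, and in 13 of 28 isotype cells. These 38 cells held 1 to 58 Cd3 UMIs (median 16), and 35 of them held at least 6. Their median depth was 17751.5 UMIs, against 12139 in the other 54 cells. Naaa was seen in 38 of the 38 cells with Cd3 transcripts and in 52 of the 54 without. Ccr7, the receptor that guides cells to lymph nodes and is carried by naive T cells and mature dendritic cells, was seen in 28 of the 38 and in 7 of the 54. The summed level of 11 T cell genes was 376, 0, 79.4 and 1160 CPM in ICI 1 to 4 and 1380 CPM in isotype. Macrophage-like cluster 7 had Cd3 transcripts in 39.4%, 10.5%, 16.0% and 53.3% of its cells in ICI 1 to 4 and in 72.9% in isotype, and B-like cluster 14 in 0% to 28.8% in the ICI libraries and in 25% in isotype. Cd3 transcripts were thus not particular to cluster 16. No doublet caller was run, and whether these cells are doublets was not tested. Some of the results below are also given without them.

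**Figure D2:**
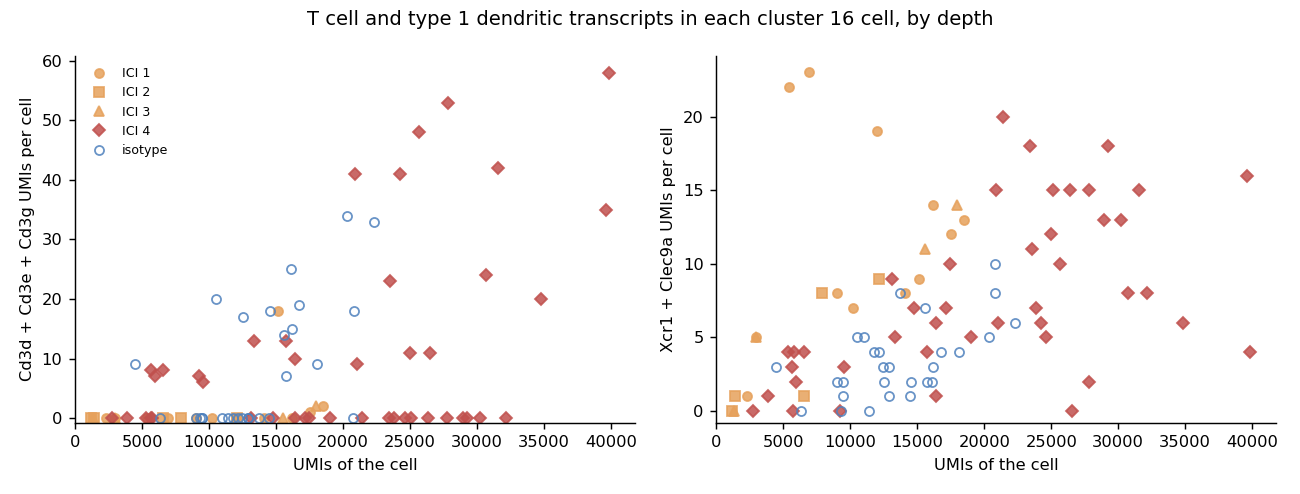
Each point is 1 of the 92 cluster 16 cells, placed by its UMI total and by its UMIs of Cd3d, Cd3e and Cd3g together (left) or of Xcr1 and Clec9a together (right), marked by library. Cd3 UMIs were at 0 in 54 cells and reached 58, and ICI 1 cells held many Xcr1 and Clec9a UMIs for their depth.

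The first comparison asked whether checkpoint antibodies went with another share of these cells. Cluster 16 made up 0.788%, 0.410%, 0.344% and 0.857% of cells in ICI 1 to 4 and 2.07% (28 of 1352 cells) in isotype. The 4 ICI libraries lay below isotype with a mean of 0.600% ± 0.260 (SD, n = 4), and the counting interval of the isotype share (1.38% to 2.98%) lay above those of the ICI libraries, the highest of which ended at 1.37% (ICI 1). The exact two-sided permutation test over libraries gave p = 0.2 (adjusted 0.8 over the 4 cell shares and ratios tested), the smallest that 4 libraries against 1 allow, so the design cannot show this difference at 0.05. A gate on marker genes in place of the cluster gave 0.825% ± 0.212 in ICI (n = 4) and 1.41% in isotype, a smaller gap in the same direction. It asked for Flt3 or Zbtb46 with H2-Ab1 and Cd74, and left out cells with Cd3 or Cd79a. It held 13, 12, 11 and 26 cells in ICI 1 to 4 and 19 in isotype. The isotype interval of the gate (0.848% to 2.19%) overlapped those of ICI 1 to 3, which ended at 1.46%, 1.71% and 1.69%. With Cd3 cells left out of all clusters, fewer cells remain in the total, and cluster 16 made up 9 of 258, 5 of 246, 3 of 205 and 22 of 160 cells in ICI 1 to 4 and 15 of 160 in isotype. ICI 4 then lay above isotype (13.8% against 9.38%) and the other ICI libraries below, with an exact two-sided permutation p of 0.8 (n = 4 against 1). With Cd3 cells left out of cluster 16 only, which was added once the values were known, the shares were 0.424% ± 0.136 in ICI and 1.11% in isotype. The share is taken of all sorted cells, and libraries differ in their lymphoid cells. With thymocyte-like clusters 2, 5 and 11 out of the total it was 0.712% ± 0.384 in ICI and 3.60% in isotype.

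Set against macrophages the picture differed between ICI libraries. There were 12 cluster 16 cells beside 104 cells of macrophage-like cluster 7 in ICI 1, 5 beside 181 in ICI 2, 4 beside 162 in ICI 3 and 43 beside 45 in ICI 4, against 28 beside 129 in isotype. On the log2 scale the ratio was -3.12, -5.18, -5.34 and -0.07 in ICI 1 to 4 and -2.20 in isotype. ICI 4 lay above isotype and the others below, and the exact two-sided permutation p was 0.8 (n = 4 against 1). The log2 difference was -1.22 over the 4 ICI libraries. It was -2.34 without ICI 4, -0.64 without ICI 2, -0.58 without ICI 3 and -0.03 with ICI 1 to 3 summed.

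**Figure D3:**
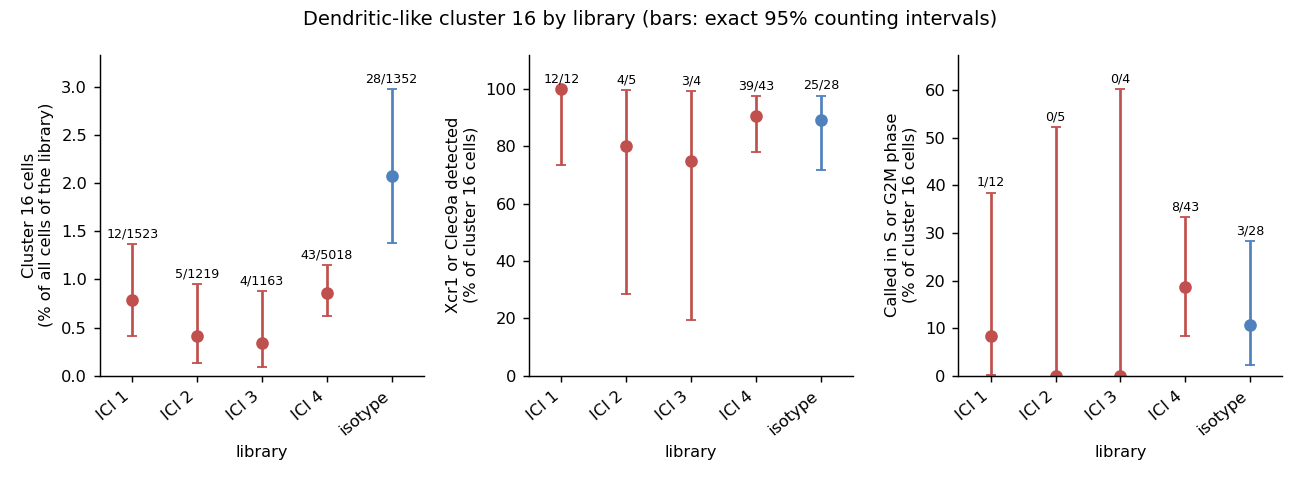
Shares by library with exact 95% counting intervals: cluster 16 cells among all cells (left), cluster 16 cells with a UMI of Xcr1 or Clec9a (middle) and cluster 16 cells called in S or G2M phase (right), with counts above each bar. The 4 ICI libraries lie at 0.344% to 0.857% in the left panel and isotype at 2.07%.

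The makeup by Xcr1 and Clec9a was compared next. Either transcript was seen in 12 of 12, 4 of 5, 3 of 4 and 39 of 43 cells in ICI 1 to 4 and in 25 of 28 isotype cells. These shares overlapped (86.4% ± 11.2 in ICI, n = 4, and 89.3% in isotype, exact two-sided permutation p = 1), and 7 of the alternatives turned the direction of this small difference. Both transcripts in the same cell were seen in 11 of 12, 2 of 5, 3 of 4 and 32 of 43 cells in ICI 1 to 4, and in 9 of 28 isotype cells. All 4 ICI libraries lay above isotype in this share (70.3% ± 21.7, n = 4, against 32.1%, exact two-sided permutation p = 0.2), with depth in ICI 1 to 3 below and in ICI 4 above that of isotype. The gap lay mostly with Xcr1, which was seen in 36 of 43 cells of ICI 4 against 14 of 28 of isotype, while Clec9a was seen in 35 of 43 cells of ICI 4 and 20 of 28 of isotype. Cells thinned to 1000 UMIs each held either transcript in 75%, 20%, 75% and 39.5% of cells in ICI 1 to 4 and in 32.1% in isotype, with ICI 2 below isotype.

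The authors' phase calls put 1 of 12, 0 of 5, 0 of 4 and 8 of 43 cells of ICI 1 to 4 in S or G2M phase, and 3 of 28 isotype cells. ICI 4 lay above isotype and the other ICI libraries below (exact two-sided permutation p = 0.8, n = 4 against 1). With 5 and 4 cells, a count of 0 in ICI 2 and ICI 3 leaves intervals up to 52.2% and 60.2%.

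Genes were then compared between ICI and isotype within cluster 16, from counts summed per library over the libraries with at least 5 cells (ICI 1, 2 and 4 and isotype). Of 4605 genes tested with edgeR's quasi-likelihood test, 0 passed an adjusted p of 0.05 in either direction (0% called), 73 had an unadjusted p under 0.05, and DESeq2 called 1. Simulated data for this comparison (3957 genes) show its reach for abundant genes, from which the altered genes were drawn. A 4-fold change was found in 18% of the altered genes and a 16-fold change in 83%. The reach for scarcer genes was not measured. Leaving out ICI 4 raised the count to 7 genes higher and 107 lower in ICI, of 2551 tested. The median log2 fold change of all genes was -0.04. As a second description, CPM was above isotype in all 4 ICI libraries for 13.7% of the 4605 genes and below it in all 4 for 16.8%, and the counts of members below stand beside those shares.

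Type 1 dendritic genes leaned towards ICI. Of 15 cDC1 genes tested, 14 had a positive log2 fold change (47.1% of all genes did), 0 passed the test, and the median was 0.55. CPM of 7 of the 15 lay above isotype in all 4 ICI libraries, and that of none below in all 4. ICI 4 by itself was higher than isotype for 8 of the 15, as it was for 2489 of all 4605 genes, so ICI 4 did not share the lean. Without Cd3 cells 14 cDC1 genes were tested, of which 11 had a positive fold change, and the median was 0.59. Xcr1 had 783, 378, 582 and 230 CPM in ICI 1 to 4 (102, 11, 22 and 200 UMIs) and 99.7 CPM (38 UMIs) in isotype. The 4 ICI values were all higher and did not overlap isotype. Its log2 fold change was 2.06 (SE 0.76, edgeR unadjusted p = 0.0165, adjusted p = 1), and the log2 ratio of ICI 4 to isotype was 1.13. Over the alternatives its adjusted p ran from 0.00611 (without ICI 4) to 1.

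Itgae, the integrin chain CD103 of tissue dendritic cells and of resident T cells, also stood above isotype in each ICI library. It had 606, 515, 688 and 296 CPM in ICI 1 to 4 and 97.1 CPM in isotype, with no overlap. The log2 fold change was 2.10 (SE 0.66, edgeR adjusted p = 1, over the alternatives 0.00844 without ICI 4 up to 1). In cells without Cd3 transcripts Itgae had 745, 515, 656 and 384 CPM in ICI 1 to 4 and 124 CPM in isotype. Clec9a did not share the gap: it had 299, 275, 212 and 153 CPM in ICI 1 to 4 and 155 CPM in isotype, with ICI 4 below isotype. Naaa had 1405, 653, 1481 and 747 CPM in ICI 1 to 4 and 837 CPM in isotype, and the groups overlapped. Irf8 had 1689, 1649, 1905 and 848 CPM in ICI 1 to 4 and 795 CPM in isotype, where ICI 4 and isotype lay close together. Batf3 had 161, 206, 212 and 87.6 CPM in ICI 1 to 4 and 89.2 CPM in isotype, with ICI 4 again beside isotype.

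Ly6a, which encodes the surface protein Sca-1 and is also carried by T cells, also differed between the groups. Its level was 553, 2061, 2169 and 1585 CPM in ICI 1 to 4 (72, 60, 82 and 1376 UMIs), against 47.2 CPM (18 UMIs) in isotype. Each ICI library stood at more than 10 times the isotype level. A UMI was seen in 5 of 12, 3 of 5, 2 of 4 and 32 of 43 cells in ICI 1 to 4 and in 5 of 28 isotype cells. In cells without Cd3 transcripts the level was 910, 2061, 4135 and 2104 CPM in ICI 1 to 4 and 5.64 CPM (1 UMI) in isotype. The gap thus remained when cells with a Cd3 UMI were left out, over 9, 5, 3, 22 and 15 cells. All cells outside cluster 16 held Ly6a at 873 CPM, and whether RNA from other cells added to these levels was not tested. The log2 fold change was 4.69 (SE 0.81, edgeR adjusted p = 0.105, range 1.24e-07 to 0.454 over the alternatives), past the threshold without ICI 4, without a filter, with the top cell of each gene removed, and with DESeq2 (0.00147). Both barcode sets of ICI 4 held it, at 1898 and 1357 CPM.

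Class I presentation genes also leaned towards ICI. Of 13 genes 12 were tested, 11 had a positive log2 fold change, 0 passed, and the median was 0.65. CPM of 9 of the 12 lay above isotype in all 4 ICI libraries. Summed over the list, the level was 10071, 11097, 11030 and 8891 CPM in ICI 1 to 4 and 6466 CPM in isotype. B2m, the light chain of every class I molecule, had 1481, 2542, 2354 and 1249 CPM in ICI 1 to 4 and 926 CPM in isotype, all 4 above isotype, with ICI 4 nearest. Its log2 fold change was 0.73 (SE 0.47, edgeR adjusted p = 1). Psmb9, a subunit of the immunoproteasome that cuts peptides for class I, had 806, 928, 555 and 713 CPM in ICI 1 to 4 and 438 CPM in isotype. All 4 ICI values were higher, and the log2 fold change was 0.73 (SE 0.49, edgeR adjusted p = 1). Psmb8, its partner subunit, had 1305, 1168, 1164 and 1236 CPM in ICI 1 to 4 and 895 CPM in isotype, with the ICI libraries close to each other.

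Tap1, a chain of the transporter that brings peptides to class I, had 253, 240, 503 and 303 CPM in ICI 1 to 4 and 152 CPM in isotype, again without overlap. The heavy chain gene H2-D1 had 3178, 3264, 3756 and 3219 CPM in ICI 1 to 4 and 2364 CPM in isotype, with a log2 fold change of 0.29 (SE 0.36, edgeR adjusted p = 1). The other heavy chain, H2-K1, had 230, 996, 899 and 276 CPM in ICI 1 to 4 and 189 CPM in isotype, with ICI 2 and ICI 3 apart from the rest. Its fold change, 1.09 on the log2 scale (SE 0.76, edgeR adjusted p = 1), is uncertain, since heavy chain genes have near-identical copies and NOD alleles were counted on mm10. Without Cd3 cells 11 of the 12 genes had a positive fold change and the median was 0.53.

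Upstream windows of 2 class I genes are shown because their levels stood above isotype in each ICI library and each holds one of the 2 searched patterns, given in capitals. B2m at chr2:122147437-122147686 (plus strand) holds GAAANNGAAA, and Psmb8 at chr17:34197945-34198194 (plus strand) holds TTCNNNGAA, both in RefSeq windows of 250 bases on build GRCm38.p6.
B2m: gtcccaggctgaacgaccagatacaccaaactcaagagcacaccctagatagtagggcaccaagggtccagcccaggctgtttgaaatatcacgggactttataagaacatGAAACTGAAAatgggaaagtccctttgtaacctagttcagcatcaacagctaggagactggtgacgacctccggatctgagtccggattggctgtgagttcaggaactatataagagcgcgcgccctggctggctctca
Psmb8: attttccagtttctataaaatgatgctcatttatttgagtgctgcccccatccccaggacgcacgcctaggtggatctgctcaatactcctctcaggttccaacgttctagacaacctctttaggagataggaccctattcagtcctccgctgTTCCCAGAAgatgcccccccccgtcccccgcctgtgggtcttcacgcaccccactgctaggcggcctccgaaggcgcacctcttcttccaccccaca
GAAANNGAAA was found on either strand in 2.98% of all 32851 windows, in 1 of 12 class I windows (11 of 13 genes matched), in 1 of 12 cDC1 windows and in 13 of 25 windows of the interferon response list. TTCNNNGAA was found in 7.02% of all windows, in 1 of 12 class I windows and in 3 of 12 cDC1 windows. A match is a description of letters and not a bound site.

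Interferon response genes leaned towards ICI as a list, while single members were mixed between libraries. Of 18 genes tested, 15 had a positive log2 fold change, 0 passed, and the median was 0.46. ICI 4 by itself was higher than isotype for 15 of the 18, with a median log2 ratio of 0.53 (0.04 over all genes). Without Cd3 cells 12 genes of the list were tested, of which 11 had a positive fold change. Their median was 1.46, against 0.01 for all genes. CPM of 4 of the 18, Irf9 and Irgm1 among them, lay above isotype in all 4 ICI libraries, and that of Ifi27l2a below it in all 4. Irf7 had 107, 172, 106 and 340 CPM in ICI 1 to 4 and 123.3 CPM in isotype, and Bst2 had 177, 206, 185 and 256 CPM in ICI 1 to 4 and 192 CPM in isotype. For both, 2 ICI libraries lay on each side of isotype. Ifi27l2a had 115, 137, 26.5 and 396 CPM in ICI 1 to 4 and 451 CPM in isotype.

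Class II genes stood at similar levels in both groups. Of 11 tested, 8 had a positive log2 fold change, with a median of 0.15 and a range of -0.15 to 0.82. H2-Ab1 had 10217, 8623, 7301 and 11928 CPM in ICI 1 to 4 and 10271 CPM in isotype, and the groups overlapped. Cd74 had 38519, 39819, 36715 and 27850 CPM in ICI 1 to 4 and 28599 CPM in isotype, with ICI 4 below isotype. Flt3 had 115, 172, 159 and 145 CPM in ICI 1 to 4 and 91.8 CPM in isotype, with no overlap. Zbtb46 had 138, 34.4, 79.4 and 63.4 CPM in ICI 1 to 4 and 108 CPM in isotype, and the groups overlapped. H2-DMb1 and its near copy H2-DMb2 traded places between libraries: H2-DMb1 had 837, 103, 26.5 and 480 CPM in ICI 1 to 4 and 488 CPM in isotype, and H2-DMb2 had 215, 1065, 926 and 523 CPM in ICI 1 to 4 and 496 CPM in isotype. ICI 2 and ICI 3 thus stood apart from the rest, and these copies are reported as uncertain.

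**Figure D4:**
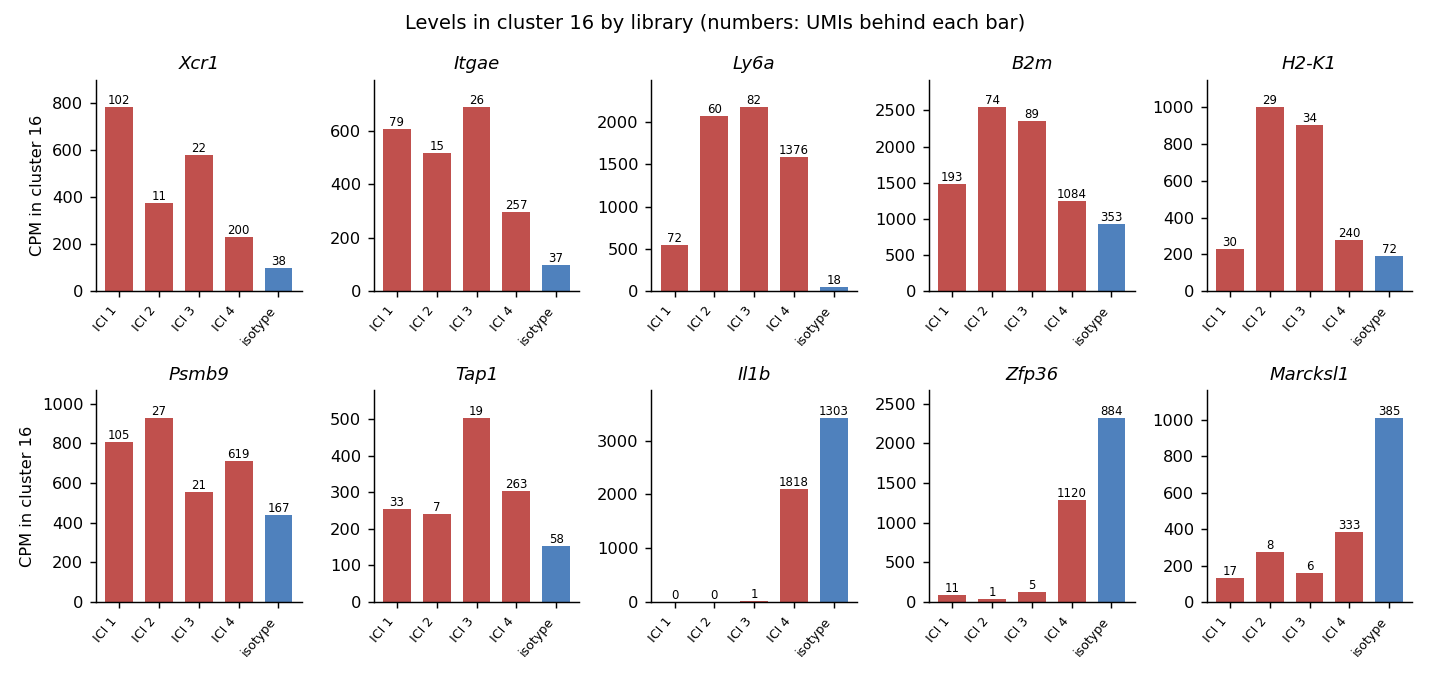
Level in cluster 16 (CPM, bars from 0) by library for 10 genes, ICI libraries left and isotype right, with the UMIs behind each bar above it. Xcr1, Itgae, Ly6a, B2m, H2-K1, Psmb9 and Tap1 lie above isotype in all 4 ICI libraries, while Il1b, Zfp36 and Marcksl1 lie below it in all 4, with Il1b at 0, 0 and 1 UMI in ICI 1 to 3.

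Inflammatory and immediate early transcripts ran the other way and split the ICI libraries. Il1b, the inflammasome cytokine, had 0, 0, 26.5 and 2094 CPM in ICI 1 to 4 (0, 0, 1 and 1818 UMIs) and 3419 CPM (1303 UMIs) in isotype. It was seen in 31 of 43 cells of ICI 4, in 1 of the 21 cells of ICI 1 to 3, and in 20 of 28 cells of isotype. Its log2 fold change was -2.26 (SE 1.36, edgeR adjusted p = 1, over the alternatives 1.34e-26 without ICI 4 up to 1), with a log2 ratio of -0.70 for ICI 4 against isotype. Zfp36, which brings about decay of cytokine mRNAs, had 84.4, 34.4, 132 and 1290.3 CPM in ICI 1 to 4 and 2319.8 CPM in isotype. Junb, an AP-1 subunit, had 276, 68.7, 52.9 and 1158 CPM in ICI 1 to 4 and 1792 CPM in isotype. In both genes ICI 4 lay below isotype, with log2 ratios of -0.84 for Zfp36 and -0.63 for Junb. The other ICI libraries lay far lower. Of 18 dissociation and stress genes tested, 4 had a positive log2 fold change, 0 passed, the median was -1.60, and 12 lay below isotype in all 4 ICI libraries. The median log2 ratio of ICI 4 to isotype over the 18 was -0.53. Without Cd3 cells 3 of the 18 had a positive fold change, and the median was -1.93. Chaperones of that list were divided, with Hspa1a and Hspa1b among the 12 genes below isotype in all 4 ICI libraries. Hspa8 and Hsp90ab1, the chaperones of that list with the most UMIs, did not share the gap. Hspa8 had 2441, 1271, 1243 and 2281 CPM in ICI 1 to 4 and 1685 CPM in isotype. Hsp90ab1 had 2119, 1546, 1428 and 2173 CPM in ICI 1 to 4 and 1719 CPM in isotype.

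Maturation genes had mostly negative fold changes. Of 8 migratory (mature) dendritic genes tested, 3 had a positive log2 fold change, 0 passed, and the median was -0.99. ICI 4 by itself lay closer to isotype, with a median log2 ratio of -0.11 over the 8 and 3 of them higher. Ccr7, Ccl22, Marcksl1 and Tmem123 lay below isotype in all 4 ICI libraries. Without Cd3 cells 7 genes of the list were tested, of which 1 had a positive fold change, and the median was -1.48. Ccr7 had 7.68, 0, 0 and 168 CPM in ICI 1 to 4 and 181 CPM in isotype. As given above, most of its cells also held Cd3 transcripts. In cells without them Ccr7 had 0, 0, 0 and 31.4 CPM in ICI 1 to 4 and 130 CPM in isotype. Ccl22, a chemokine for regulatory T cells, had 7.68, 0, 26.5 and 143 CPM in ICI 1 to 4 and 207 CPM in isotype. Marcksl1, an actin regulator found in mature dendritic cells, had 130, 275, 159 and 384 CPM in ICI 1 to 4 and 1010.3 CPM in isotype, with every ICI library well below isotype. Its log2 fold change was -2.05 (SE 0.56, edgeR unadjusted p = 0.00248, adjusted p = 1, over the alternatives 0.000624 without ICI 4 up to 1), and the log2 ratio of ICI 4 to isotype was -1.37. Cd83 had 161, 137, 1190.3 and 826 CPM in ICI 1 to 4 and 1044 CPM in isotype, with ICI 3 above isotype.

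Of the ligands of the blocked receptors, Cd86 was seen in 82 of the 92 cells, Cd80 in 46 and Cd274 in 21. Cd274, which encodes PD-L1, had 0, 0, 0 and 44.9 CPM in ICI 1 to 4 and 7.87 CPM (3 UMIs) in isotype. Cd80 had 7.68, 68.7, 26.5 and 74.9 CPM in ICI 1 to 4 and 91.8 CPM in isotype, all 4 below. Cd86 had 315, 378, 106 and 308 CPM in ICI 1 to 4 and 213 CPM in isotype, and ICI 3 lay below isotype. Cd40, the receptor for T cell help, had 0, 68.7, 0 and 106 CPM in ICI 1 to 4 and 57.7 CPM in isotype. Tnfsf9, the ligand 4-1BBL, had 0, 0, 0 and 137 CPM in ICI 1 to 4 and 396 CPM in isotype. Its log2 fold change of -2.63 (SE 0.98, edgeR adjusted p = 1) rests on libraries at 0, and the log2 ratio of ICI 4 to isotype was -1.47. Of 9 genes of the list tested, 4 had a positive log2 fold change, 0 passed, and the median was -0.03.

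Among the remaining lists some stood near the median of all genes and others apart from it. Cross-presentation and dead-cell uptake genes had a median of 0.03 over 9 tested, with Wdfy4 at 837, 481, 476 and 583 CPM in ICI 1 to 4 and 396 CPM in isotype, and Timd4, a receptor for dead cells, at 84.4, 137, 79.4 and 138 CPM in ICI 1 to 4 and 315 CPM in isotype. Wdfy4 lay above isotype and Timd4 below it in all 4 ICI libraries. Dendritic transcription factors had a median of 0.02 over 15 tested, and chemokines, cytokines and their receptors one of -0.02 over 20. Proliferation genes had a median of 0.72 over 14 tested, with 11 positive, and 2 of the 14 lay above isotype in all 4 ICI libraries. ICI 4 by itself was higher than isotype for 13 of the 14, with a median log2 ratio of 1.21. Summed over the 24 genes of the list, the level was 1896, 1340, 1217 and 4966 CPM in ICI 1 to 4 and 3797 CPM in isotype. Only ICI 4 thus lay above isotype in the sum. Tubb5, a tubulin, had 315, 481, 291 and 372 CPM in ICI 1 to 4 and 160 CPM in isotype, while the histone H2afz had 1075, 584, 582 and 2742 CPM in ICI 1 to 4 and 2900 CPM in isotype, so these 2 members ran in opposite directions. The T cell list had a median of -1.03 over 11 tested, with 2 positive, 0 passed, and 8 below isotype in all 4 ICI libraries. Its median log2 ratio of ICI 4 to isotype was -0.16, and its summed levels are given above.

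**Figure D5:**
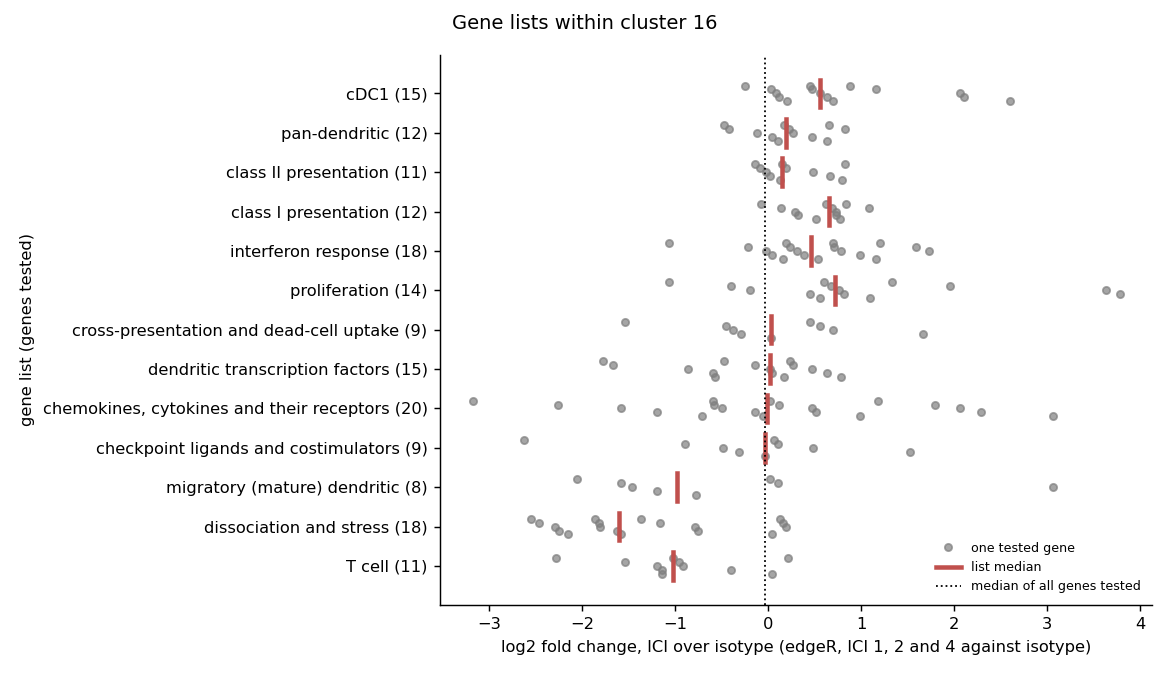
Log2 fold change of ICI over isotype within cluster 16 for each tested gene (grey points) of 13 lists, with the list median (red bar) and the median of all 4605 genes (dotted line at -0.04). The class I median lies at 0.65 and the stress list median at -1.60, and 0 of the genes shown passed the adjusted threshold.

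The last comparison tested whether the ICI effect differed between cluster 16 and macrophage-like cluster 7 of the same libraries, with library as a block. Of 8689 genes 10 differed towards cluster 16 and 10 towards cluster 7 (0.115% called in each direction), and Il1b, Zfp36 and Ly6a were among them. Il1b had 0, 0, 26.5 and 2094 CPM in cluster 16 of ICI 1 to 4 and 3419 CPM in isotype, and in cluster 7 it had 852, 1577, 2012 and 1135 CPM in ICI 1 to 4 and 1782 CPM in isotype. In ICI 1 to 3 the macrophage-like cells held 452, 1125 and 1417 UMIs of Il1b, and the 12, 5 and 4 dendritic-like cells of the same libraries held 0, 0 and 1. The difference between the log2 fold changes was -3.69 (SE 0.59, edgeR adjusted p = 2.93e-06). Over the alternatives its adjusted p ran from 1.05e-15 to 1, with 1 without ICI 1 and without Cd3 cells. Zfp36 had 652, 2227, 2302 and 1437 CPM in cluster 7 of ICI 1 to 4 and 2242 CPM in isotype, and its difference was -2.38 (SE 0.55, edgeR adjusted p = 0.0107, over the alternatives 1.73e-05 up to 1, which it had without ICI 1 and without Cd3 cells).

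Ly6a in cluster 7 had 575, 15.4, 17.0 and 766 CPM in ICI 1 to 4 and 120 CPM in isotype, so ICI 2 and ICI 3 lay below isotype there and far above it in cluster 16. The difference was 3.17 (SE 0.70, edgeR adjusted p = 0.0063, over the alternatives 1.6e-06 to 1, with 0.0687 without ICI 2 and 0.527 without Cd3 cells). The difference itself was 1.75 without ICI 2 and 7.75 without Cd3 cells. Without Cd3 cells 1 gene was called in all, and DESeq2 called 2. Pclaf, Top2a, Hist1h1b, Ube2c and H2afx, genes of DNA replication and division, differed towards cluster 16. Of their UMIs in cluster 16, 1 cell held 34.5%, 40%, 59.8%, 37.8% and 13.3% in that order. Hist1h1b had 0, 0, 0 and 104 UMIs in cluster 16 of ICI 1 to 4 and 8 in isotype. Top2a had 0, 34.4, 0 and 72.6 CPM in cluster 16 of ICI 1 to 4 and 2.62 CPM in isotype, and in cluster 7 it had 43.4, 4.21, 7.10 and 43.7 CPM in ICI 1 to 4 and 137 CPM in isotype. H2afx, a histone variant that marks DNA breaks, had 130, 68.7, 132 and 139 CPM in cluster 16 of ICI 1 to 4 and 52.5 CPM in isotype, with all 4 ICI libraries above. In cluster 7 it had 37.7, 36.5, 14.2 and 77.4 CPM in ICI 1 to 4 and 229 CPM in isotype. All 5 genes lost the call without ICI 4, but not in the same way. The difference for H2afx was 3.40 without ICI 4 and 3.17 with it (edgeR adjusted p = 0.191 and 0.0208), while that of Top2a was 3.15 without ICI 4 and 5.61 with it.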

How the data were processed

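Single cells were sequenced from their 5′ ends on a droplet platform, per the labels, in 4 ICI libraries and 1 isotype library. The deposited counts are raw UMI counts of 18767 genes, and summed over genes they equalled the authors' total in each of the 10275 cells. Per the file headers, the cell table has the library, phase call, mitochondrial percent and cluster (17 clusters at resolution 0.4) of every cell. Cell Ranger and Seurat with mouse build mm10 are named in the submitters' processing notes; versions and settings were not given in the sources used here. The table has 1523, 1219 and 1163 cells of ICI 1 to 3, for which the labels state 1688, 1234 and 1178.

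Raw counts were summed per library over cluster 16 and over cluster 7. edgeR 4.0.16 (R 4.3.3) fitted quasi-likelihood models with TMM scaling, filterByExpr and Benjamini-Hochberg adjustment over all genes (threshold 0.05) to libraries with at least 5 cells, and the spread of the single isotype library was taken to equal that among ICI libraries. CPM is each gene's summed count per 1000000 UMIs of those cells, and log2 ratios of ICI 4 to isotype had 10 CPM added. Each SE given with an edgeR fold change was worked back from the test. It is the size of the log2 fold change divided by the square root of the test's F statistic. Shares were tested with an exact two-sided permutation of the library labels. On simulated data the interaction test recovered 24% of genes changed 4-fold and 95% changed 16-fold among 7776 genes, with 0 false calls of 119, and the test within cluster 16 made 8 false calls of 109 among 3957 genes. DESeq2 1.42.0 was an alternative, with others described in the closing section. Upstream sequences are from RefSeq.

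Named genes were all genes of the dendritic, presentation and checkpoint lists, the 20 largest folds over other cells, up to 10 genes per direction and comparison past the threshold whose ICI libraries all lay on 1 side of isotype, and up to 4 members with the most UMIs of each other list. Receptor segments, ribosomal, mitochondrial and unnamed genes were not ranked. Of the genes these rules pick, not all are described, and 1 is not reported here. The members, lists and tests were chosen with earlier results of these data known.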

Additional observations from a re-analysis of the deposited data

Results flagged for a closer look

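Among the 42 values checked over the 4 ICI libraries, 6 had 1 library far from the other 3, where chance gives about 1 in 20. The library apart was ICI 4 for 5 of them in cluster 16: Il1b at 2094 CPM, Zfp36 at 1290.3 CPM, Ccr7 at 168 CPM, Tnfsf9 at 137 CPM and Cd274 at 44.9 CPM, each above ICI 1 to 3. For H2-D1 it was ICI 3, at 3756 CPM. Isotype held 3419 CPM of Il1b, 2319.8 of Zfp36, 181 of Ccr7, 396 of Tnfsf9, 7.87 of Cd274 and 2364 of H2-D1. ICI 4 has 43 of the 64 ICI cells of the cluster and the deepest ones, and its part in these values was not tested.

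The ICI effect differed between cluster 16 and macrophage-like cluster 7 for 14 named genes, by edgeR's test of the interaction itself. Its size (log2 fold change in cluster 16 minus that in cluster 7) was 7.96 for Mgl2, 5.89 for Pclaf, 5.61 for Top2a, 3.93 for Hist1h1b, 3.78 for Ube2c, 3.17 for H2afx and 3.17 for Ly6a. Towards cluster 7 it was -9.50 for Hba-a1, -8.77 for Hbb-bs, -7.65 for Ifitm6, -4.21 for Calca, -3.69 for Il1b, -3.51 for Il1r2 and -2.38 for Zfp36. Several of these rest on few molecules, and their fitted sizes depend on the prior count. Mgl2 had 1, 2, 1 and 32 UMIs in cluster 16 of ICI 1 to 4 and 0 in isotype, Ifitm6 had 0 in each ICI library and 9 in isotype, and Calca had 0, 0, 0 and 4 in ICI 1 to 4 and 38 in isotype. Of the Calca UMIs in cluster 16, 90.5% lay in 1 cell. The red cell globins Hba-a1 and Hbb-bs had 3 and 3 UMIs in cluster 16 of ICI 4 and 4 and 3 in isotype. In cluster 7 they stood at 2030 and 1508 CPM in ICI 4 and at 8.18 and 7.55 CPM in isotype. Cluster 7 of ICI 1 to 3 held Hba-a1 at 13.2, 0 and 0 CPM and Hbb-bs at 0, 0 and 0 CPM. Their high level in cluster 7 was thus seen in ICI 4 only. Il1r2, a decoy receptor for IL-1, had 0, 0, 0 and 50.7 CPM in cluster 16 of ICI 1 to 4 and 186 CPM in isotype.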

How the results depend on the processing

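The share of cluster 16 cells lay below isotype under all 11 alternatives, from -4.19 percentage points (Cd3 cells left out of all cells, with 1 ICI library above isotype) to -0.58 (a marker gate), with p of 0.2 or more. The log2 ratio to cluster 7 cells, -1.22 as reported, kept its sign under its 8 alternatives but ran from -2.34 without ICI 4 to -0.03 with ICI 1 to 3 summed. The share with Xcr1 or Clec9a, -2.86 points as reported, turned to 1.30 with ICI 1 to 3 summed, 4.39 without Cd3 cells, 8.79 without shared barcodes, 20.2 after thinning, 38.1 for both genes and 7.61 with each barcode of ICI 2 and ICI 3 counted once, and ran from -7.39 to 0.95 when each ICI library was left out. The S or G2M share turned to 0.97 with ICI 1 to 3 summed.

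Within cluster 16 the count of called genes, 0 as reported, was 1 with DESeq2, 9 without a filter, 1 with the top cell of each gene removed and 1 with libraries of at least 10 cells, and ran from 0 to 114 without each ICI library (114 without ICI 4, 1 without ICI 2). For the difference between clusters, 20 as reported, it was 2 with DESeq2, 45 with ICI 1 to 3 summed, 1 without Cd3 cells, 42 without shared barcodes, 11 without top cells, 7 without receptor, ribosomal and mitochondrial genes and 34 with all 4 ICI libraries, and ran from 7 to 42 without each ICI library (7 without ICI 1, 42 without ICI 2 and 12 without ICI 4). The cause of these changes was not tested. Of single genes' alternatives, 276 held their direction and side of the threshold, 60 lost a call, 14 gained one, 3 moved by more than 1 SD (ICI 4 against isotype for Xcr1, Itgae and H2-D1) and 3 turned: Hist1h1b to -3.75 without ICI 4 (its highest value without 1 ICI library was 4.82), Ube2c to -0.18 without Cd3 cells and Hbb-bs to 1.30 with DESeq2. The alternatives with each barcode counted once, with Cd3 cells left out of cluster 16 only and with all 4 ICI libraries were chosen after seeing the data. No paired analysis was possible because isotype has 1 library. Depth limits ICI 2 and ICI 3 most, with 5 and 4 cells.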

Other observations

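Cd207, which encodes the endocytic lectin langerin, was among the genes with the largest fold of cluster 16 over all other cells. It was seen in 55 of the 92 cells and stood at 281 CPM in cluster 16, against 10.9 CPM in cluster 7 and 0.949 CPM in all other cells. Its level was 338, 0, 79.4 and 288 CPM in ICI 1 to 4 and 286 CPM in isotype, and the groups overlapped. Havcr2, which encodes TIM-3, stood at 288 CPM in cluster 16 against 106 CPM in cluster 7, with 253, 172, 370 and 329 CPM in ICI 1 to 4 and 207 CPM in isotype. Csf2rb, the shared chain of the receptors for GM-CSF and IL-3, had 146, 103, 26.5 and 363 CPM in ICI 1 to 4 and 228 CPM in isotype, with ICI 4 above isotype and the others below.

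Il1b and Xcr1 were seen together in 36 cells, Il1b without Xcr1 in 16, Xcr1 without Il1b in 32 and neither in 8. Both barcode sets of ICI 4 held Il1b, at 2240.3 and 1988 CPM.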
